A study of Solanum pimpinellifolium with 6 samples.

Results

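Gibberellin oxidase genes were followed in RNA sequencing data of young tomato fruits. The 10 genes are GA20ox1 (Solyc03g006880), GA20ox2 (Solyc06g035530), GA20ox3 (Solyc11g072310), GA3ox1 (Solyc06g066820), GA3ox2 (Solyc03g119910), GA2ox1 (Solyc05g053340), GA2ox2 (Solyc07g056670), GA2ox3 (Solyc01g079200), GA2ox4 (Solyc07g061720) and GA2ox5 (Solyc07g061730). They were matched by identifier, by a rule that uses no measured value, but the set was chosen with earlier results of these data known. All 10 were found among the 34723 genes with values. The deposited descriptions name the first 3 as gibberellin 20-oxidases, the next 2 as gibberellin 3-beta-hydroxylases and the last 5 as gibberellin 2-oxidases. The numbered symbols, and the symbols of the pathway and marker genes named below, are from memory of the literature.

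Gibberellins are hormones that drive stem elongation, seed germination and the growth of the ovary into a fruit after pollination. GA 20-oxidases and GA 3-oxidases catalyse the last steps that make the bioactive forms, and GA 2-oxidases inactivate these forms and their precursors. Bioactive gibberellin binds the receptor GID1, which then leads DELLA proteins, the repressors of the response, to degradation. In many plants this response lowers transcripts of GA 20- and 3-oxidases and raises those of GA 2-oxidases.

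The plants were the wild tomato Solanum pimpinellifolium, accession LA1589, 2 months old by the labels. The control group was 3 libraries of the nontransgenic sibling, labelled wild type. The other group was 3 libraries of RNAi line 207, a single transgenic line made to silence the zinc finger gene SlZFP2. The promoter of the silencing construct is not given in the sources used here. Fruits were taken 2 days after anthesis from flowers pollinated by hand, and the design text speaks of biological replicates and gives defects of line 207 in fruit set and in abscisic acid biosynthesis. The comparison asks which transcripts differ between the fruits of the 2 genotypes.

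Levels are in FPKM, read fragments per length of transcript and per depth of library, so levels of different genes can be compared. Library totals are unknown, and relative depth read from the steps between low values was 0.802 to 1 in the siblings and 0.386 to 0.781 in line 207. SlZFP2 (Solyc07g053570) was at 2.89, 3.05 and 0.00147 FPKM in the siblings and at 10.3, 9.03 and 7.45 in line 207, which goes against silencing (limma adjusted p = 0.112, with a log2 fold change of 1.97 ± 0.66 (SE)). Whether reads of the silencing construct enter this estimate, or whether labels were exchanged, was not tested. The libraries are therefore called labelled line 207 and labelled sibling, and each direction is one between labels. The extraction protocol in the labels speaks of shoot tips, while the sample labels speak of fruits. Of the carpel and ovule genes, TAG1 was at 16.7 FPKM or more in every library, while CRCa and TAGL11 reached 1 FPKM in sibling replicate 3 only, and TAGL1 stood at 28.2 FPKM or more in 4 libraries and at 0.0124 or less in sibling replicate 2 and line 207 replicate 3. Of the petal and stamen genes, TAP3 and TM6 were at 45.7 FPKM or more in every library, LePI was at 0.987 to 8.38, and TPI was listed at 0 in 4 libraries and reached at most 2.58. Of the 4 shoot meristem genes, CLV3 was listed at 0 in all libraries, as was WUS except at 2.02 FPKM in line 207 replicate 2. The other meristem genes were detected: TKN1 stood at 4.49, 17.9 and 17.0 FPKM in siblings against 2.54, 5.90 and 6.91, and TKN2 at 2.12, 2.53 and 5.84 against 5.14, 7.72e-05 and 1.99. An estimate can also be missing in 1 library: 43 genes stood below 0.01 FPKM in 1 library and at 20 FPKM or more in the other 5. A value of 0 is therefore given as listed at 0.

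Of the 10 genes, 3 were higher in labelled line 207, and all of these were GA 2-oxidases that inactivate gibberellin: GA2ox2, GA2ox4 and GA2ox5. None of the 10 was called lower. A filter of at least 1 FPKM in 3 or more libraries kept 8 of the genes, and GA20ox1 and GA20ox2 did not reach it and were not tested. Over all 15766 tested genes, 5.01% were called higher and 5.04% lower (limma on log2(FPKM + 1), Benjamini-Hochberg adjusted p at most 0.05). With no adjustment for multiple tests, 3 members were higher and 0 lower at p below 0.05, and the authors' deposited table also calls 3 higher and 0 lower. In that table, 28.4% of the 9583 genes the authors tested have a q of at most 0.05, and 12.8% have such a q with a higher mean in labelled line 207. The groups of libraries did not overlap for 3 of the 8 tested members, all of them higher, against 33.2% of all tested genes in either direction, 15.6% higher and 17.6% lower. The 3 called genes were the only members tested in that table, which gives each the same q of 0.000439. The median log2 fold change of the 8 tested members was 0.458, against -0.0868 for all tested genes. In RNA from whole fruits, more cells of a type and more transcript per cell cannot be told apart.

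**Figure D1:**
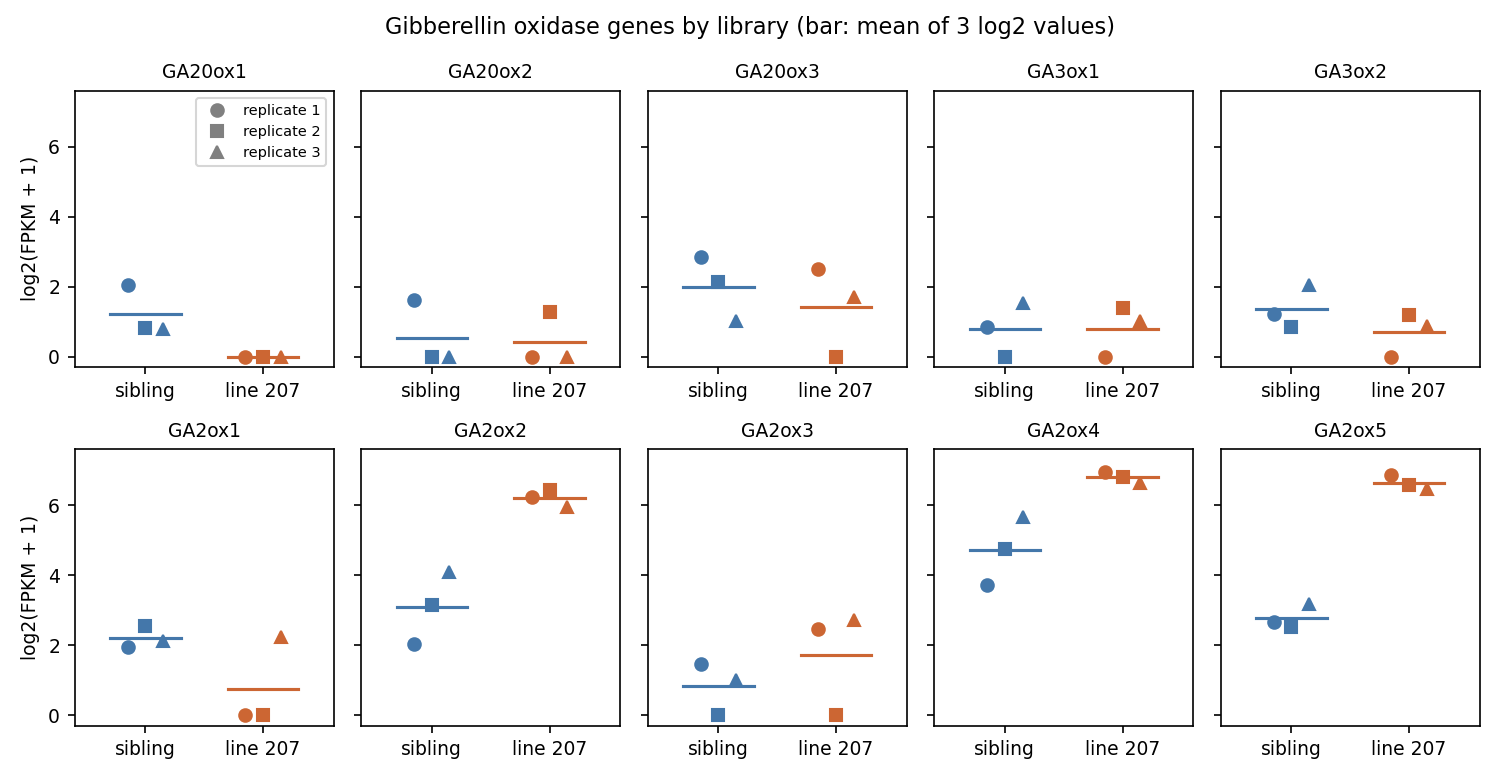
Level of each gibberellin oxidase gene in the 6 libraries, as log2(FPKM + 1) on the vertical axis, with 1 panel per gene. Points are libraries (circle, square and triangle for replicates 1, 2 and 3), bars are means of 3, blue is labelled sibling and orange labelled line 207. GA2ox2, GA2ox4 and GA2ox5 show groups that lie apart, higher in labelled line 207. The other genes lie low in both groups, and among them only GA20ox1 has groups that do not overlap, lower in labelled line 207 and not tested.

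The GA 20-oxidases, which make gibberellin precursors, were low in every library. GA20ox1 reached 3.16, 0.779 and 0.728 FPKM in labelled siblings, and every library of labelled line 207 listed it at 0. The groups did not overlap for GA20ox1, but the gene was too low to be tested. GA20ox2 was at 2.07 FPKM in sibling replicate 1, at 1.40 in line 207 replicate 2 and listed at 0 in the other 4 libraries. GA20ox3 was the highest of the class, at 6.15, 3.34 and 1.03 FPKM in labelled siblings and at 4.71, 0 and 2.26 in labelled line 207. Its groups overlapped, and its log2 fold change of -0.59 ± 0.82 (SE) did not pass (limma adjusted p = 0.699).

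The GA 3-oxidases, which form the bioactive hormones, were low too. GA3ox1 was at 0.795, 0 and 1.87 FPKM in labelled siblings and at 0, 1.61 and 1.01 in labelled line 207. Its groups overlapped, and the 95% interval of its log2 fold change ran from -1.47 to 1.49 (limma adjusted p = 0.994). GA3ox2 was at 1.33, 0.812 and 3.11 FPKM against 0, 1.3 and 0.837, also with overlapping groups. The interval of its log2 fold change ran from -2.04 to 0.69 (limma adjusted p = 0.516), so a change in either direction could not be told from none.

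The low values came in steps. After scaling by relative depth, the nonzero values of each of the 7 members below 10 FPKM were whole multiples, within 5%, of 1 unit per gene. The unit was the gene's smallest value, divided by 3 for GA2ox1. Of 4303 low genes in the table, 83.8% behaved the same way with a unit of the smallest value as it stands or divided by 2 or 3. With the smallest value as it stands as the only unit, the share was 63.7%. In these units GA20ox1 counted 5, 1 and 1 in the labelled siblings and GA20ox3 counted 7, 3 and 1, then 2, 0 and 2 in labelled line 207. GA3ox1 did not exceed 2 units in any library and GA3ox2 did not exceed 4. Whether a unit is a single fragment was not tested. No difference in GA 20- or 3-oxidase transcripts was detected at this depth, and the values do not show that the groups are alike.

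The 2 remaining low genes were GA 2-oxidases. GA2ox1 was at 2.89, 4.84 and 3.38 FPKM in labelled siblings, and in labelled line 207 it was listed at 0 in replicates 1 and 2 and stood at 3.72 in replicate 3. It did not pass (limma adjusted p = 0.262; log2 fold change -1.47 ± 0.73 (SE)). GA2ox3 was at 1.75, 0 and 1.01 FPKM against 4.51, 0 and 5.63, and did not pass (limma adjusted p = 0.559, with a log2 fold change of 0.91 ± 0.86 (SE)). Both genes had overlapping groups, so 2 of the 5 GA 2-oxidases were not called.

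GA2ox5 was the clearest of the called genes. It stood at 5.31, 4.77 and 7.99 FPKM in labelled siblings and at 114, 93.7 and 86.4 in labelled line 207. The groups lay far apart, with means of 6.03 ± 1.73 and 98.1 ± 14.4 (SD, n = 3), a 16.3-fold difference. Its log2 fold change was 3.84 ± 0.26 (SE, limma adjusted p = 0.000983), and its p ranked 25 among the 15766 genes. Among tested genes in the same library, its level moved from percentiles of 29.6 to 40.6 in the labelled siblings to 90.9 to 93.3 in labelled line 207. It passed with each library left out (limma adjusted p up to 0.0122).

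GA2ox2 was at 3.10, 7.83 and 16.2 FPKM in labelled siblings and at 73.5, 85.3 and 60.2 in labelled line 207. The groups did not overlap, and the siblings spread over a 5.22-fold range against 1.42-fold in labelled line 207. The ratio of means was 8.08, and with a library left out it ran from 6.08 (without sibling replicate 1) to 13.4 (without sibling replicate 3). Its log2 fold change was 3.10 ± 0.50 (SE, limma adjusted p = 0.0136), and leaving out sibling replicate 2, or replicate 1 or 2 of line 207, ended the call (limma adjusted p up to 0.0594).

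GA2ox4 had the highest level of the 10 genes in all 6 libraries. It was at 12.0, 25.9 and 49.5 FPKM in labelled siblings and at 121, 112 and 97.1 in labelled line 207. The groups did not overlap, and again the siblings were the more scattered, over a 4.11-fold range against 1.25-fold. The ratio of means was 3.77, and with a library left out it ran from 2.92 (without sibling replicate 1) to 5.8 (without sibling replicate 3). Its log2 fold change was 2.08 ± 0.46 (SE), with a limma adjusted p of 0.0341. The call was lost without sibling replicate 2 or any 1 line 207 library (limma adjusted p up to 0.101), and in other settings given in the closing section.

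**Figure D2:**
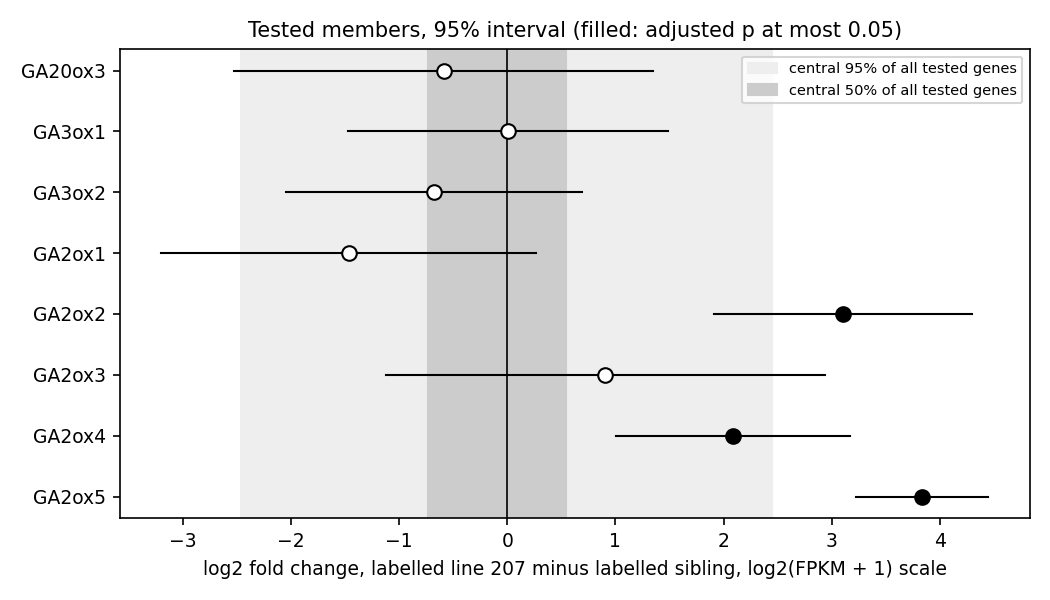
Log2 fold change of the 8 tested members between labelled line 207 and labelled sibling (horizontal axis, log2(FPKM + 1) scale), 1 row per gene. Lines are 95% intervals, filled points passed at an adjusted p of 0.05, and grey bands hold the central 50% and 95% of all tested genes; GA2ox2 at 3.10 and GA2ox5 at 3.84 lie beyond the wider band.

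The 3 called genes differed in how they varied. In labelled line 207 the order GA2ox4, GA2ox5, GA2ox2 from high to low held in each of the 3 libraries, although the ranges of GA2ox4 and GA2ox5 overlapped. Among the labelled siblings, GA2ox2 and GA2ox4 were both lowest in replicate 1 and highest in replicate 3, with a ratio of GA2ox2 to GA2ox4 of 0.257, 0.302 and 0.327. GA2ox5 was flat there, over a 1.67-fold range, so its ratio to GA2ox4 was 0.441, 0.184 and 0.161. In labelled line 207 the ratio of GA2ox5 to GA2ox4 was 0.94, 0.84 and 0.89. The log2 ratio of GA2ox5 to GA2ox4 (each FPKM + 1) averaged -1.92 ± 0.77 in the labelled siblings and -0.17 ± 0.08 in labelled line 207 (SD, n = 3). The difference of 1.75 had an exact two-sided permutation p of 0.1, the smallest that 3 against 3 libraries allow.

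GA2ox4 and GA2ox5 bear consecutive identifiers. In the order of the identifiers, 5 others stand between GA2ox2 and GA2ox4, and all of the called members carry identifiers of chromosome 7. Between GA2ox2 and GA2ox4 the numbering jumps from Solyc07g056700 to Solyc07g061700, so this order does not show how close the genes lie. No coordinates are given, since the supplied gene table is of another assembly and matched 0 of the 10 identifiers. The 5 identifiers in between were at 0.84 FPKM or less in every library. Of the 11 other identifiers in the stretch from 3 before GA2ox2 to 3 after GA2ox5, 3 were tested and 0 called (limma; 0 at an unadjusted p below 0.05 and 0 by the authors' deposited q). The nearest identifier before GA2ox2, Solyc07g056660, was at 19.9, 14.7 and 15.5 FPKM in labelled siblings and at 19.9, 15.7 and 20.1 in labelled line 207. Genes of similar sequence can share reads in such estimates, and this was not tested for GA2ox4 and GA2ox5. Added together they were at 17.3, 30.7 and 57.5 FPKM in labelled siblings and at 236, 205 and 183 in labelled line 207. As 1 gene in the same fit they passed (log2 fold change 2.68, limma adjusted p = 0.0102).

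By class, the summed level of the 5 GA 2-oxidases was 25.1, 43.3 and 78.1 FPKM in labelled siblings and 314, 290 and 253 in labelled line 207. The means of 48.8 ± 26.9 and 286 ± 30.6 (SD, n = 3) differed 5.85-fold, and no test is given for a sum over chosen genes. The 3 GA 20-oxidases summed to 11.4, 4.12 and 1.76 FPKM against 4.71, 1.4 and 2.26. The 2 GA 3-oxidases summed to 2.12, 0.812 and 4.98 FPKM against 0, 2.91 and 1.85. Both of these classes overlapped between groups. GA 2-oxidases thus made up 65.0%, 89.8% and 92.1% of the summed oxidase level in the labelled siblings and 98.5%, 98.5% and 98.4% in labelled line 207. The lowest of these shares belonged to sibling replicate 1, which had both the highest GA 20-oxidase sum and the lowest GA 2-oxidase sum.

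**Figure D3:**
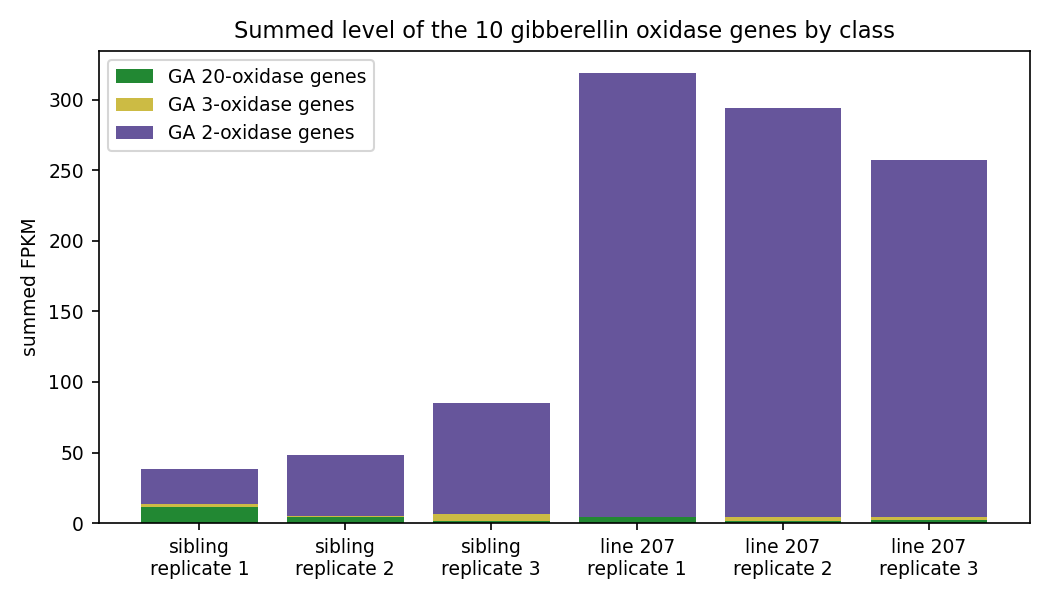
Summed FPKM of the 10 gibberellin oxidase genes in each library (vertical axis), stacked by class. GA 2-oxidase genes reach 25.1 to 78.1 FPKM in labelled siblings and 253 to 314 in labelled line 207, and the other classes are a thin band at the base.

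The genes with patterns most like each called member were found by the root mean square difference of log2(FPKM + 1) over the 6 libraries, each gene centred on its own mean. Closest to GA2ox5 was a homeobox leucine zipper gene (Solyc06g053220, difference 0.148), at 11.6, 13.2 and 19.8 FPKM against 215, 230 and 182. The next were a surfeit locus protein 1 gene (Solyc03g118610, 0.198) and a mitochondrial carrier gene (Solyc06g066680, 0.218), both at or near 0 in the labelled siblings. Closest to GA2ox4 were a nodulin MtN21 family gene (Solyc02g087060, 0.12), a proteinase inhibitor gene (Solyc09g089490, 0.147) and a pyruvate phosphate dikinase gene (Solyc01g080460, 0.156). Closest to GA2ox2 were genes for amino acid permease 6 (Solyc04g077050, 0.189), a calmodulin-like protein (Solyc01g108190, 0.215) and an undecaprenyl pyrophosphate synthase (Solyc10g085140, 0.22). Between members the difference was 0.521 for GA2ox2 and GA2ox4, 0.618 for GA2ox2 and GA2ox5 and 0.982 for GA2ox4 and GA2ox5. By likeness to GA2ox2, GA2ox4 ranked 75 and GA2ox5 ranked 129 among the tested genes. By likeness to GA2ox4, GA2ox2 ranked 266 and GA2ox5 ranked 2554. By likeness to GA2ox5, GA2ox2 ranked 99 and GA2ox4 ranked 387.

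A further gene described as a GA 2-oxidase, outside the 10, was also higher in labelled line 207. Of 21 other genes described as gibberellin oxidases, 14 were listed at 0 in all libraries and 3 were tested. Among the tested genes 1 was higher and 0 lower, against 5.01% and 5.04% of all tested genes. With no adjustment 2 were higher and 0 lower, and the authors' deposited q calls 1 higher and 0 lower. The called gene, Solyc02g070430 (described as gibberellin 2-oxidase 1), was at 0, 3.63 and 3.31 FPKM in labelled siblings and at 26.6, 27.8 and 39.7 in labelled line 207. The groups did not overlap (limma adjusted p = 0.0197, with a log2 fold change of 3.55 ± 0.65 (SE)). The call was lost without any 1 line 207 library (limma adjusted p up to 0.0728), with 0.1 added in place of 1 (0.091) and with no filter on low values (0.056).

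Genes upstream of the oxidases were mostly low. Of 5 genes of early synthesis, 2 were tested and 0 called (limma; 0 at an unadjusted p below 0.05 and 0 by the authors' deposited q). KAO1 (Solyc12g006460), described only as a cytochrome P450 and by its symbol an ent-kaurenoic acid oxidase, an enzyme that leads to the first gibberellin, was at 32.7, 46.6 and 44.1 FPKM in labelled siblings. In labelled line 207 it stood at 7.59, 0.0993 and 35.4, so that the groups overlapped through replicate 3 (limma adjusted p = 0.211, with a log2 fold change of -2.57 ± 1.14 (SE)). KS (Solyc07g066670), described as ent-kaurene synthase, was at 2.87, 3.22 and 10.1 FPKM against 12.9, 7.63 and 1.26 (limma adjusted p = 0.905). CPS, KO and KAO2 reached 1 FPKM in too few libraries to be tested. Among 9 genes found by description words for these steps, which include CPS, KS and KAO2, 3 were tested and 0 called (limma; 1 lower at an unadjusted p below 0.05 and 1 lower by the authors' deposited q).

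Among the receptors, both GID1b genes were higher in labelled line 207. GID1b1 (Solyc09g074270, described only as an acetyl esterase) was at 33.5, 77.0 and 65.7 FPKM in labelled siblings and at 236, 266 and 213 in labelled line 207. The groups did not overlap, and the means of 58.7 ± 22.6 and 238 ± 26.5 (SD, n = 3) differed 4.06-fold (limma adjusted p = 0.0103; log2 fold change 2.08 ± 0.31 (SE)). GID1b2 (Solyc06g008870) was at 11.5, 30.2 and 26.2 FPKM against 59.7, 71.8 and 70.2, with means 2.97-fold apart (limma adjusted p = 0.034; log2 fold change 1.63 ± 0.36 (SE)). The call of GID1b2 was kept without sibling replicate 1 and lost without each of the other 5 libraries (limma adjusted p up to 0.103), with a constant prior (0.0724) and with no filter on low values (0.0837). Both genes were lowest in sibling replicate 1, as were GA2ox2 and GA2ox4. GID1a (Solyc01g098390) was at 14.6, 16.7 and 27.4 FPKM against 9.23, 28.7 and 34.6, with overlapping groups (limma adjusted p = 0.881).

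PROCERA (Solyc11g011260), the tomato DELLA repressor, was at 59.9, 82.9 and 63.2 FPKM in labelled siblings and at 45.8, 37.4 and 52.3 in labelled line 207. Its groups did not overlap, yet the log2 fold change of -0.59 ± 0.21 (SE) did not pass (limma adjusted p = 0.128). In the authors' deposited table its q is 0.0148. In the wider list of 54 genes described as DELLA or GRAS family, PROCERA included, 19 were tested. Among them 2 were higher and 0 lower, against 5.01% and 5.04% of all tested genes. With no adjustment 4 were higher and 1 lower, and the authors' deposited q calls 2 higher and 1 lower. The called genes were Solyc02g085600, at 30.9 ± 1.25 against 73.6 ± 9.85 FPKM (SD, n = 3; limma adjusted p = 0.00962), and Solyc09g018460, at 1.32 ± 0.53 against 20.1 ± 9.51 (limma adjusted p = 0.016). Leaving out sibling replicate 2, or replicate 1 or 3 of line 207, ended the call of the second gene (limma adjusted p up to 0.0601). Its q in the authors' deposited table is 0.119.

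**Figure D4:**
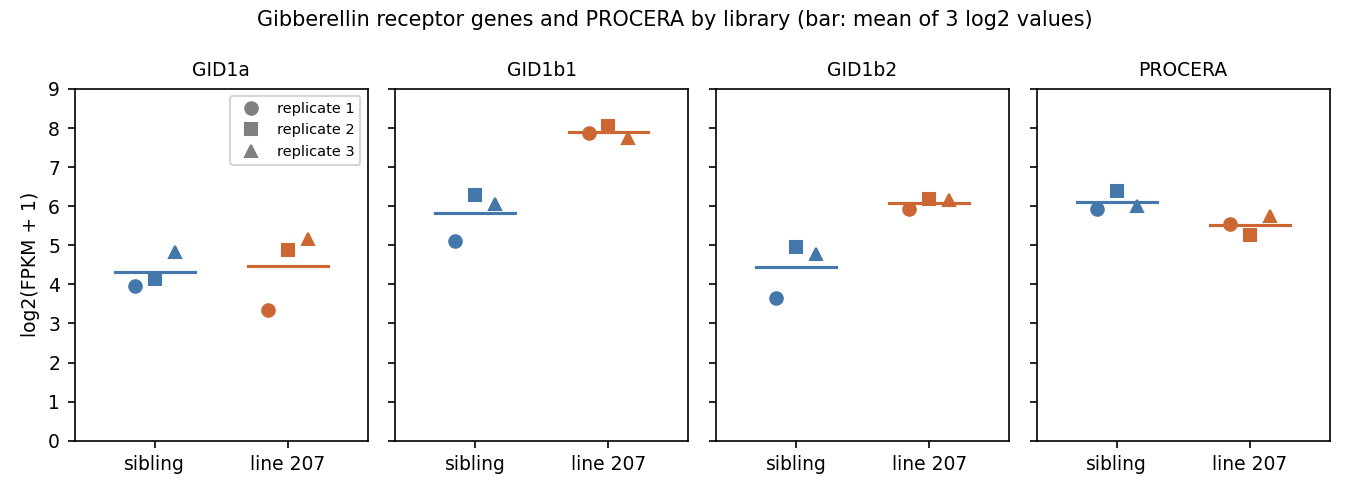
Level of the receptor genes GID1a, GID1b1 and GID1b2 and of the DELLA gene PROCERA in each library, as log2(FPKM + 1) on the vertical axis. Points are libraries, bars are means of 3, blue is labelled sibling and orange labelled line 207; the GID1b genes lie higher in labelled line 207, with adjusted p of 0.0103 and 0.034 (limma), and PROCERA did not pass.

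The 18 genes found by the words gibberellin receptor or GID1 include GID1a, GID1b2 and others described as GID1L2. Of these, 9 were tested, with 1 higher (GID1b2) and 1 lower, against 5.01% and 5.04% of all tested genes. The lower gene, Solyc01g108580, was at 38.6, 21.9 and 24.6 FPKM in labelled siblings and at 7.11, 7.49 and 11.3 in labelled line 207 (limma adjusted p = 0.0302, with a log2 fold change of -1.59 ± 0.34 (SE)). Its call was lost without each library in turn (limma adjusted p up to 0.083), with the replicate number as a block (0.0798) and with no filter on low values (0.0509).

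Genes described as gibberellin-regulated were lower wherever they passed. They encode small cysteine-rich proteins of the GAST family, first found in tomato as transcripts that gibberellin raises. Of 20 such genes 15 were tested, 5 were lower and 0 higher (limma; 6 lower and 0 higher at an unadjusted p below 0.05, and 5 lower and 0 higher by the authors' deposited q). Over all tested genes, limma called 5.04% lower and 5.01% higher. By the authors' deposited q, 28.4% of the genes they tested passed in either direction. The set of described genes was chosen with earlier results known. The median log2 fold change of the tested gibberellin-regulated genes was -1.28, against -0.0868 for all tested genes. Not all calls of gibberellin-regulated genes held with a library left out.

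Solyc03g113910 was at 634, 523 and 355 FPKM in labelled siblings and at 38.4, 103 and 73.2 in labelled line 207, 7.04-fold lower by means (limma adjusted p = 0.00763; log2 fold change -2.87 ± 0.38 (SE)). Solyc12g042500 was at 477, 400 and 319 FPKM against 150.0, 154 and 182, 2.46-fold lower (limma adjusted p = 0.0108). Both kept their calls with each library left out. Solyc04g078200 was at 323, 190 and 211 FPKM against 87.9, 38.1 and 23.6 (limma adjusted p = 0.0229), and Solyc01g107370 at 60.6, 25.3 and 45.7 against 0, 5.08 and 6.54 (limma adjusted p = 0.0371). The calls of both were kept without line 207 replicate 1 and lost without each of the other 5 libraries (limma adjusted p up to 0.0794 and 0.115), with a constant prior and with no filter on low values. Solyc01g107370 also lost its call with 0.1 added in place of 1 (0.126) and with the replicate number as a block (0.0777). The fifth called gene, Solyc04g017720, was at 47.9, 58.4 and 33.7 FPKM against 17.9, 7.03 and 17.5, 3.3-fold lower (limma adjusted p = 0.0415); it fell outside the rule for named genes and was chosen after its values were seen. Its q in the authors' deposited table is 0.0644, so the lower genes there are the other 4 and Solyc06g069790 (q 0.0202), which was at 90.2, 77.4 and 61.2 FPKM against 44.5, 0 and 54.3 and was not called here (limma adjusted p = 0.334). Solyc02g089350, a gene chosen after its values were seen for its high level, was at 368, 123 and 117 FPKM against 110, 135 and 188 (limma adjusted p = 0.717). Its groups overlapped.

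**Figure D5:**
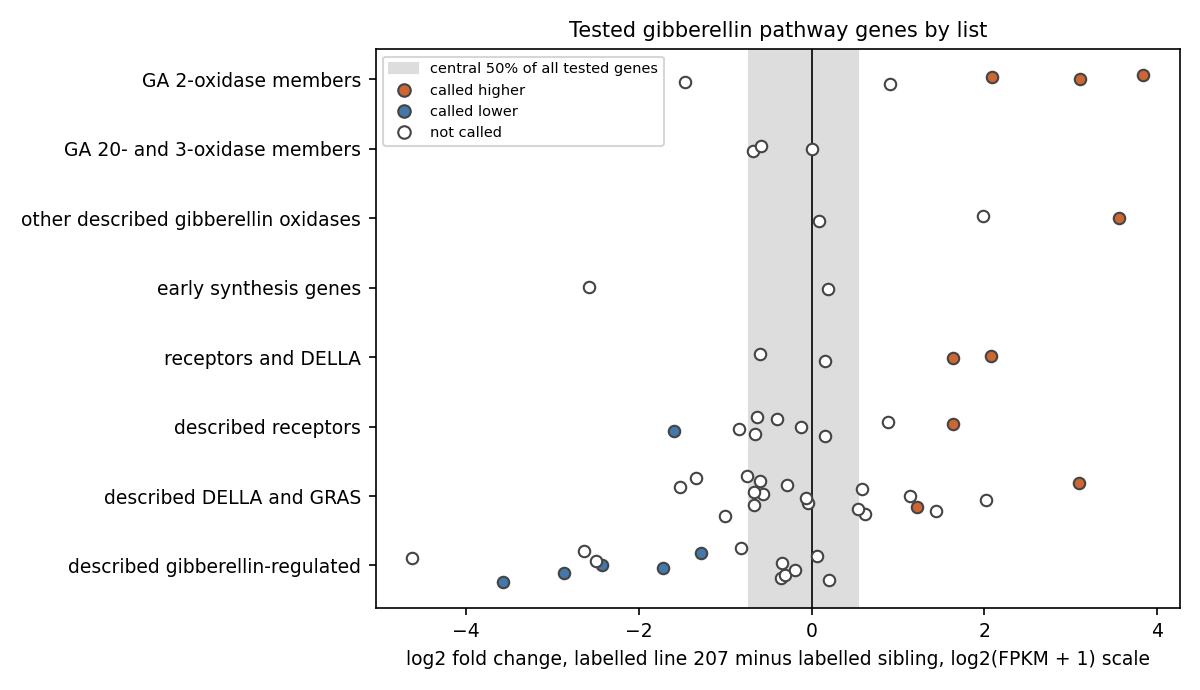
Log2 fold change of every tested gene of the gibberellin lists between labelled line 207 and labelled sibling (horizontal axis, log2(FPKM + 1) scale), 1 row per list. Orange points were called higher, blue points lower and open points did not pass; called GA 2-oxidases lie at the right, called gibberellin-regulated genes at the left, and some genes stand in 2 lists.

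Over all 125 pathway genes outside the 10, 51 were tested, with 5 higher and 6 lower, and a median log2 fold change of -0.355. Of all tested genes, 5.01% were called higher and 5.04% lower, with a median of -0.0868. By the authors' deposited q, 5 of the pathway genes were higher and 8 lower. Of the markers of flower parts, TAG1 was the 1 called, a gene of the carpel and ovule list described as AGAMOUS. It was at 16.7, 21.9 and 24.4 FPKM in labelled siblings and at 60.6, 64.5 and 90.6 in labelled line 207 (limma adjusted p = 0.00877). Of the 4 carpel and ovule genes, which summed to 21.9 to 63.7 FPKM in labelled siblings and 90.6 to 135 in labelled line 207, 2 were tested. The lowest sum of each group was almost all TAG1. It fell in sibling replicate 2 and line 207 replicate 3, where TAGL1 stood at 0.000922 and 0.0124 FPKM. The 4 petal and stamen genes summed to 149 to 161 FPKM and 173 to 176, with 3 tested and 0 called (limma; 0 at an unadjusted p below 0.05 and 0 by the authors' deposited q). The 4 meristem genes summed to 6.61 to 22.8 and 7.68 to 8.9 FPKM, with 2 tested and 0 called (limma; 0 at an unadjusted p below 0.05 and 1 lower by the authors' deposited q).

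The pollen gene LAT52 was at 7.58, 37.2 and 39.4 FPKM in labelled siblings and at 6.71, 7.87 and 8.24 in labelled line 207 (limma adjusted p = 0.189). Leaving out sibling replicate 1 gave a limma adjusted p of 0.0137, and leaving out any other library gave 0.285 to 0.424. Of 76 genes described with the words pollen or anther 41 were tested. Among them 4 were higher and 5 lower, against 5.01% and 5.04% of all tested genes. Summed over all genes, the values ran from 1054800 to 1179400 in labelled siblings and from 785040 to 924470 in labelled line 207. For the pollen and anther list the summed level was 2280 to 2480 FPKM in labelled siblings and 1690 to 1810 in labelled line 207. This list also holds genes described as expansins and pistil extensin-like proteins, some of them among the called genes. Its counts and sum are therefore not a measure of pollen. The part of flower tissue and of depth in the differences between the gibberellin genes was not tested.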

How the data were processed

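The authors deposited 1 table with a value for each gene in each library. Its unit was taken to be FPKM, since the submitters' processing notes name TopHat 1.3.2 and Cufflinks. The sources used here give no genome build, annotation release or scaling of libraries to each other. The deposited p-values and q-values are the authors' own, with 1 for a gene not tested. Of 34727 rows, 4 without values were left out.

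Groups came from the labels. The test was limma (version 3.58.1, R version 4.3.3) with a prior that follows the mean level, applied to log2(FPKM + 1) of the 15766 genes with at least 1 FPKM in 3 or more libraries. A call is a Benjamini-Hochberg adjusted p of at most 0.05. The scale understates log2 fold changes of low genes. The test was checked on simulated data. No mean or ratio is given for a single gene with a value below 0.1 FPKM.

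The 10 members and all lists were chosen with earlier results of these data known. Genes named are the members, the identifier lists, up to 4 called genes with the smallest p in each of 6 lists of description words (for pollen and anther as counts only), and 3 genes most alike per called member. The steps between low values, the neighbouring identifiers and the sum of GA2ox4 and GA2ox5 were examined after seeing the data. Low genes for the steps had a highest value between 0.3 and 10 FPKM, no nonzero value of 0.05 or less, and 2 or more nonzero libraries.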

Additional observations from a re-analysis of the deposited data

How the results depend on the processing

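The alternatives were pseudocounts of 0.1 and 5, no filter on low values, a mean of at least 10 FPKM, upper quartile and median ratio scaling, a constant prior, the authors' deposited q, a block for the replicate number, and leaving out each library. GA2ox5 kept its call in all of them (limma adjusted p up to 0.0122). GA2ox2 kept it in all except leaving out the 3 libraries named above. GA2ox4 also lost it with no filter (limma adjusted p = 0.0948), a constant prior (0.0709) and the block (0.0658). The number of members called higher was 1 to 3 with a library left out. The number of all genes called was 1585, and 706 to 1219 with a library left out, 894 with the block and 2722 by the authors' deposited q. Of other pathway genes, 5 were called higher, 2 to 5 with a library left out and 3 with no filter. There were 6 lower, 2 to 4 with a library left out, 2 with no filter, 3 with a constant prior and 3 with the block. Fits without a library have fewer samples, and otherwise the cause was not tested. Replicate numbers gave no sign of pairing the libraries. Deviations of same-numbered libraries correlated at 0.00397, -0.00806 and -0.0105, and no library correlated best with its own number. All correlations were weak, from -0.0166 to 0.0256. With a replicate block the GA2ox5 to GA2ox4 log2 ratio differed by 1.75 (exact sign-flip p = 0.25, the smallest possible). The target SlZFP2 stayed higher and not called throughout, at log2 fold changes of 1.02 to 3.18. The low members rest on few steps above 0, and the line 207 libraries were the shallower ones.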

Other observations

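Some other genes described as gibberellin 2-oxidases, picked after their values were seen, were not called. Solyc10g007570 (described as gibberellin 2-oxidase 3) reached 1.37, 0.000181 and 0 FPKM in siblings against 1.72, 6.60 and 6.12 in labelled line 207, with groups that did not overlap (limma adjusted p = 0.106). The gene with the identifier before it and the same description, Solyc10g007560, was at 13.7 FPKM in sibling replicate 2 and 53.1 in line 207 replicate 1, and at 0.00133 or less in the other 4 libraries. It was not tested. Solyc08g016660 (described as gibberellin 2-oxidase 5) was listed at 0 in all labelled siblings and in line 207 replicate 1, and stood at 1.98 and 1.25 FPKM in line 207 replicates 2 and 3.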
